A study of Mus musculus with 8 samples.

Results

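Neutrophils of subcutaneous mouse tumors were taken from 8 single-cell RNA libraries as the cells whose deposited natural log values of S100a8 and S100a9 were both at least 3, with at least 1 of Csf3r, Cxcr2, Retnlg and G0s2 detected and with no UMI (unique molecular identifier, a counted transcript) of C1qa, C1qb, C1qc, Cd3d, Cd3e or Krt18. Members were thus chosen by measured values of these 12 genes, which are given below as a description. The rule gave 1531 cells of 29496. The tumors grew from MB49, a mouse urothelial cancer line, in C57BL/6 hosts. The wild-type hosts were UbcreERT2/+;Atg7+/+ (libraries 1, 2, 5 and 6) and the deleted hosts UbcreERT2/+;Atg7f/f (libraries 3, 4, 7 and 8), so that both carried a tamoxifen-inducible Cre recombinase driven by a promoter active in all tissues. All hosts received tamoxifen on 4 days, MB49 cells 1 week later at 2 tumors per mouse, and had tumors collected 3 weeks after injection. Atg7 encodes an enzyme that autophagosome formation requires, and its loss was neither limited to neutrophils nor carried by the injected tumor cells. No label says which mouse a tumor came from, so p-values measure the spread between libraries, which may share an animal. Tumors were dissociated and mononuclear cells collected by density centrifugation before the 10x Genomics 5' kit, and this step can set how many neutrophils, and which, reached the droplets.

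Neutrophils are short-lived granulocytes that leave the bone marrow with preformed granules and enter inflamed tissue through chemokine receptors such as Cxcr2. In tumors they often lose traits of circulating cells and make inflammatory chemokines and interleukin 1. Type I interferons and interferon gamma each induce sets of defense genes in them, and interferon gamma in particular raises guanylate-binding proteins and the machinery that presents peptides on MHC class I.

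Neutrophils numbered 36, 147, 250 and 204 in libraries 1, 2, 5 and 6 of wild-type hosts, and 49, 48, 14 and 783 in libraries 3, 4, 7 and 8 of deleted hosts. Library 8 thus held most of them, and library 7 too few for the test across genes, for which at least 20 were required. That test therefore compared 4 wild-type with 3 deleted libraries, and values of library 7 are given beside it. Neutrophil RNA was sparse, with median UMIs per neutrophil of 1045 ± 258 (SD, n = 4) in wild-type and 1462 ± 510 (SD, n = 4) in deleted hosts, which overlapped (two-sided exact permutation p = 0.229). The overlap came from library 7 alone, at 893.5. In the libraries of the test across genes the medians did not overlap. They were 1315, 1105, 694.5 and 1064.5 in wild-type libraries 1, 2, 5 and 6, and 1365, 2130 and 1460 in deleted libraries 3, 4 and 8. Without library 7 the deleted mean was higher by 607 UMIs (two-sided exact permutation p = 0.0571, the smallest that 4 against 3 libraries can give). Whole libraries held from 4371773 UMIs (library 7) to 59235799 (library 6). In alphabetical order, the first cell barcode began with AAACCC in each of libraries 1 to 4 and with AAACCT in each of libraries 5 to 8. The starts of other barcodes were not compared, and no label names these sets. These 2 barcode sets, each with both genotypes, are treated below as sets of libraries. Without library 7, the deleted arm of the second set is library 8 alone, so gene and list differences given for libraries 5 to 8 compare library 8 with libraries 5 and 6. No barcode was shared between neutrophils of different libraries. The lowest deposited value inside the threshold of 3 was 3.01 and the highest outside it 2.9999, and 53 neutrophils lay within 0.25 above the threshold and 50 cells otherwise passing within 0.25 below it. The 6 excluded genes removed between 0 (library 7) and 55 (library 2) cells that had passed the other criteria. These were 30.8%, 27.2%, 32.9% and 30.4% of such cells in libraries 1 to 4, and 9.75%, 4.67%, 0% and 6.45% in libraries 5 to 8. Krt18 was found in 12 of the 16 cells removed in library 1 and in 0 of the 24 removed in library 3.

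Leading genes outside the rule were those of neutrophils, and the genes of the rule were high by construction. S100a8 and S100a9, the subunits of calprotectin, averaged 243 and 376 UMIs per 10000 over the 8 libraries, against 3.67 and 4.43 in all other cells. Among genes outside the rule, Stfa2l1, a stefin protease inhibitor, stood at 20.05 against 0.434, and Asprv1, a protease of mature neutrophils, at 4.02 against 0.111. Hdc, which makes histamine, stood at 12.4 against 0.457 and Chil1, a chitinase-like protein of specific granules, at 4.30 against 0.124. Markers of other cells were low. The summed level of 10 macrophage markers was 6.84 to 16.2 UMIs per 10000 in neutrophils of wild-type hosts and 9.16 to 18.3 in those of deleted hosts, against 71.6 to 176 in C1q-positive macrophages of the same tumors. Of 5 B cell markers 4 were at 0 in all 7 tested libraries, and Siglecf, a gene of eosinophils and of some tumor neutrophils, reached at most 0.200. C1q-positive macrophages numbered 198, 347, 77 and 332 of 2295, 3153, 6070 and 5611 cells in libraries 1, 2, 5 and 6 of wild-type hosts. In libraries 3, 4, 7 and 8 of deleted hosts they numbered 1974, 903, 68 and 962 of 3948, 2454, 964 and 5001 cells. Summed fibroblast markers in neutrophils reached 23.5 in library 3 and 6.35 in library 4 and at most 1.42 in the other libraries, and the part of RNA from other cells in the results below was not tested.

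Among the most abundant neutrophil transcripts were those of iron storage, alarmins and inflammatory chemokines. Ribosomal protein and mitochondrial genes were left out of this ranking. Gm42418, which overlaps ribosomal RNA, was also abundant and is given at the end. Fth1, the ferritin heavy chain, averaged 617 UMIs per 10000. Cxcl2, a chemokine that attracts further neutrophils, averaged 369 and ranged from 186 (library 3) to 528 (library 6) among the 7 tested libraries. Il1b, which encodes interleukin 1 beta, was even across them at 91.3 to 119. Ccl4 and Ccl3, chemokines for T cells and monocytes, averaged 102 and 84.6. Both varied widely, with Ccl4 at 27.6 in library 3 and 233 in library 6. Acod1, the enzyme that makes itaconate, averaged 50.3 against 3.09 in all other cells.

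After every cell was thinned to 500 UMIs, which left out 1 shallower neutrophil (library 8), most neutrophils of every library held the inflammatory chemokines and few held granule transcripts of immature cells. Cxcl2 was detected in 91.7% to 100% of neutrophils per library, against 43.2% to 91.2% of macrophages. Ccl3 was detected in 51.0% to 82.8%, against 10.1% to 23.8%. Cd274, which encodes the checkpoint ligand PD-L1, was detected in 44.9% (library 3) to 92.9% (library 7) of neutrophils and in 10.1% to 22.3% of macrophages. The interferon-induced antiviral gene Rsad2 was detected in 35.4% to 52.8% of neutrophils, against 11.7% to 21.9%. Camp and Ltf, which encode granule proteins made in the marrow, reached at most 0.895% and 1.92% of neutrophils, both in library 8. Library 3 stood lowest for Ccl3, Ccl4, Cd274 and Tnf.

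**Figure D1:**
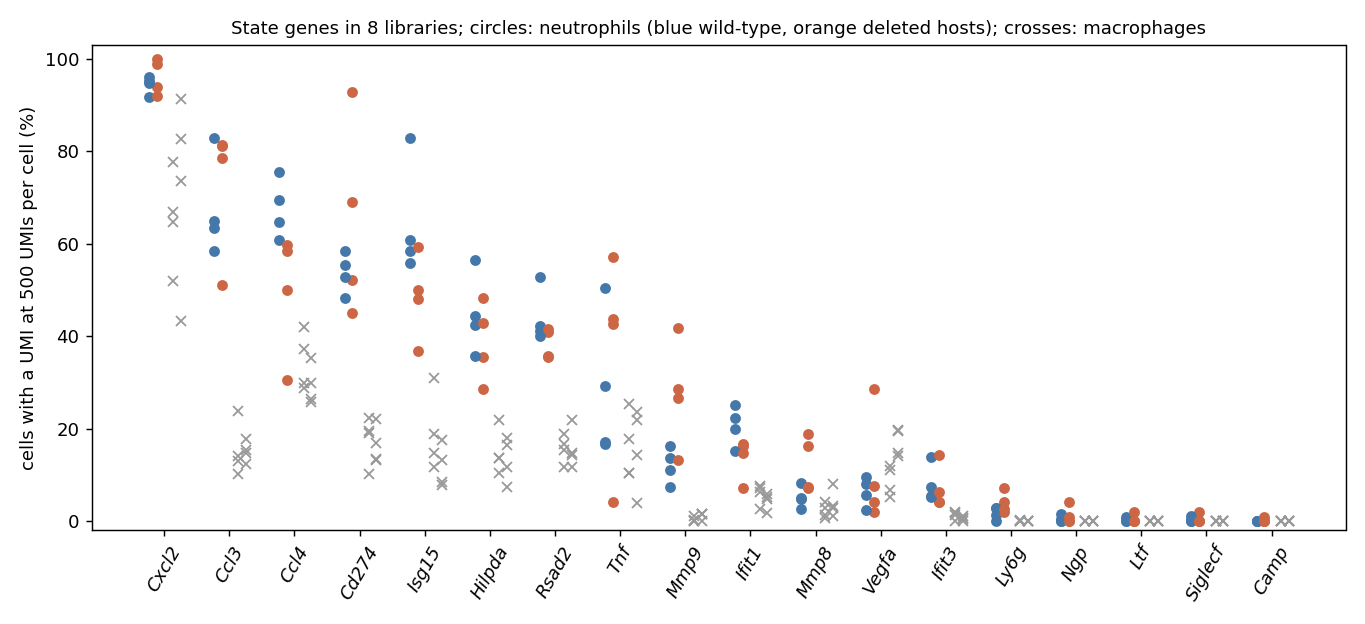
Share of cells with a UMI of each state gene after thinning to 500 UMIs (y axis, %), with 1 point per library; circles are neutrophils (blue wild-type hosts, orange deleted hosts) and grey crosses are C1q-positive macrophages. Cxcl2 lay at 91.7% to 100% of neutrophils, and Camp at or near 0.

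The share of neutrophils did not separate the host genotypes. They made up 1.57%, 4.66%, 4.12% and 3.64% of cells in libraries 1, 2, 5 and 6 of wild-type hosts and 1.24%, 1.96%, 1.45% and 15.7% in libraries 3, 4, 7 and 8 of deleted hosts. Library 8 lay far above all others, and the other 3 deleted libraries lay among or below the wild-type ones. The means were 3.50% ± 1.35 and 5.08% ± 7.06 (SD, n = 4 each), with two-sided exact permutation p = 0.971, and without library 8 the difference turned from 1.58 to -1.95 percentage points (exact permutation p = 0.0857). Because malignant cells can set a share of all cells, the share was also taken of cells with a Ptprc (CD45) UMI and no Krt18. It was 10.9%, 14.7%, 27.0% and 18.5% in libraries 1, 2, 5 and 6 of wild-type hosts and 2.53%, 3.64%, 4.28% and 29.6% in libraries 3, 4, 7 and 8 of deleted hosts. Here 3 deleted libraries lay below every wild-type library and library 8 above them all, with means of 17.8% ± 6.87 and 10.0% ± 13.1 (SD, n = 4 each; two-sided exact permutation p = 0.371, adjusted p = 0.743 over the 2 shares). Without library 8 the difference moved from -7.76 to -14.3 percentage points (exact permutation p = 0.0571, the smallest that 4 against 3 libraries can give). With 4 against 4 libraries the smallest p an exact permutation can give is 0.0286. With labels permuted only within the barcode sets it is 0.0556, and the 2 shares then gave exact permutation p = 0.944 and 0.333.

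**Figure D2:**
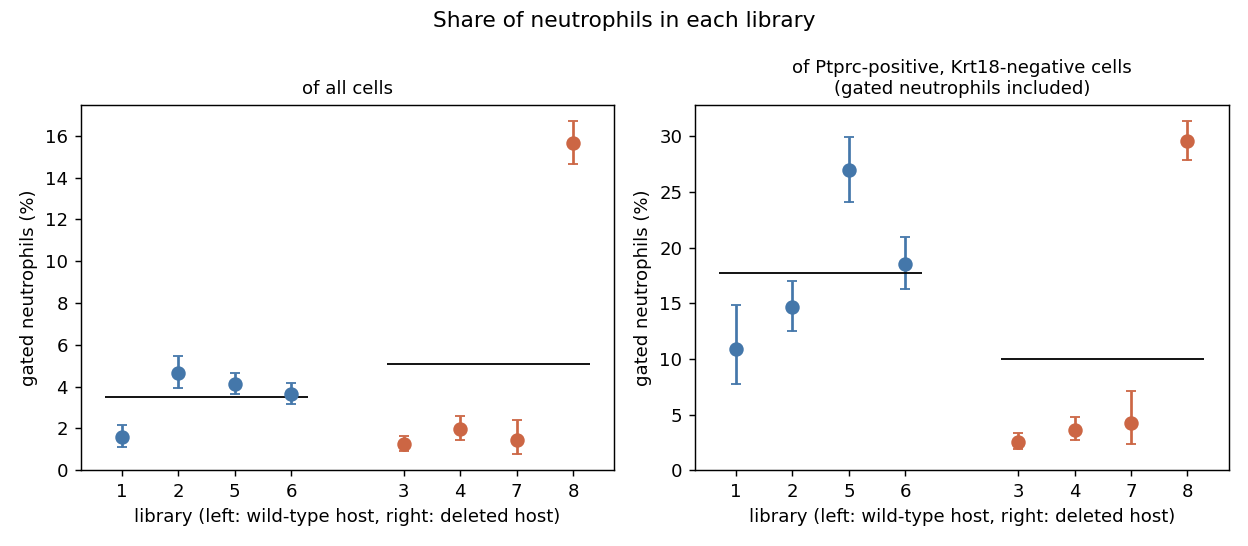
Gated neutrophils as a share of all cells (left, %) and of Ptprc-positive, Krt18-negative cells (right, %) in each library; bars are exact 95% binomial intervals, which cover counting error only, and lines are group means. Library 8 lies at 15.7% and 29.6%, while deleted libraries 3, 4 and 7 lie at or below 1.96% and 4.28%.

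Transcripts of Atg7 (chromosome 6, 114643097 to 114860614, mm10) did not separate the genotypes in neutrophils and could not check the deletion. Its level was 0.471, 0.460, 0.185 and 0.377 UMIs per 10000 in libraries 1, 2, 5 and 6 of wild-type hosts, and 0.434, 0.251, 0 and 0.659 in libraries 3, 4, 7 and 8 of deleted hosts. The genotypes overlapped (0.373 ± 0.132 and 0.336 ± 0.279, SD, n = 4 each, two-sided exact permutation p = 0.886). These levels rest on 3, 12, 3 and 10 UMIs in the wild-type libraries and on 3, 3, 0 and 68 in the deleted ones, so that library 8 held most Atg7 UMIs and the highest level. At the depth of library 7, a count of 0 allows up to 2.103 UMIs per 10000. The labels do not give the deleted part of the gene, and whether these UMIs came from inside it was not tested.

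Between the host genotypes, 4 genes were higher in neutrophils of deleted hosts and none lower, of 2150 tested (0.186%, limma adjusted p under 0.05). At an unadjusted p under 0.05, 149 genes (6.93%) were higher and 66 (3.07%) lower. Ly6i (chromosome 15, 74979534 to 74983430), a Ly6-family membrane protein, stood at 2.12, 0.307, 0.948 and 3.37 UMIs per 10000 in libraries 1, 2, 5 and 6 of wild-type hosts and at 11.2, 5.94 and 6.74 in libraries 3, 4 and 8 of deleted hosts. It rose 4.71-fold (log2 difference 2.14, SE 0.43, limma adjusted p = 0.0436), and library 7, outside the test, held 11.04. In macrophages its level was at most 1.40 in any library. H2-Q6, a nonclassical MHC class I gene of the Qa-2 group (chromosome 17, 35424850 to 35430055), stood at 0.251, 0.891, 0.790 and 0.888 in wild-type libraries and at 2.49, 3.04 and 3.74 in the deleted ones, with 6.64 in library 7. It rose 4.39-fold (log2 difference 1.60, SE 0.33, limma adjusted p = 0.0436), and since H2-Q genes are near-identical copies, reads may be split between them.

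The other 2 genes encode a redox enzyme subunit and a lysosomal glycoprotein. Gclm (chromosome 3, 122245557 to 122270732), the modifier subunit of the enzyme that starts glutathione synthesis, stood at 1.11, 0.512, 0.370 and 0.790 UMIs per 10000 in libraries 1, 2, 5 and 6 of wild-type hosts and at 3.34, 4.42 and 2.00 in libraries 3, 4 and 8 of deleted hosts, with 1.47 in library 7. It rose 4.68-fold (log2 difference 1.64, SE 0.34, limma adjusted p = 0.0436). Creg1 (chromosome 1, 165763746 to 165775308), a secreted glycoprotein of the endosomal and lysosomal system, stood at 2.58, 1.64, 0.728 and 1.59 in wild-type libraries and at 4.89, 10.53 and 4.96 in the deleted ones, with 4.14 in library 7. It rose 4.16-fold (log2 difference 1.76, SE 0.37, limma adjusted p = 0.0436). For each of the 4 genes the genotypes did not overlap over all 8 libraries. The log2 difference was at least 1.59 among libraries 1 to 4, and at least 1.24 between library 8 and libraries 5 and 6. The calls themselves were fragile. No gene passed when library 1, 2, 3, 4 or 5 was left out or when library 7 was added, whereas 30 were higher and 9 lower without library 8, and 20 were higher and 4 lower with a term for the barcode set.

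**Figure D3:**
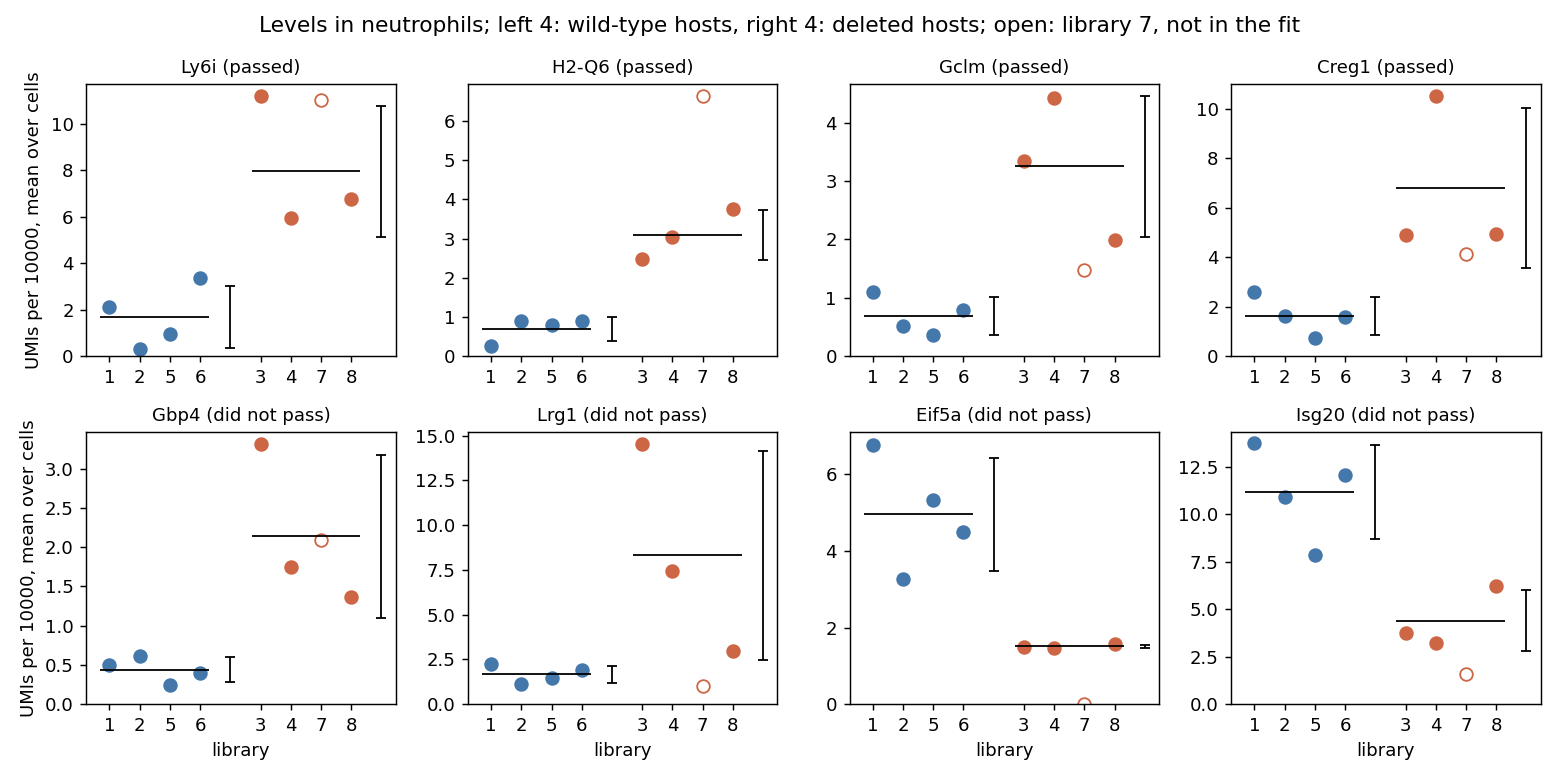
Level of 8 genes in neutrophils (y axis, UMIs per 10000, mean over cells) by library, in blue for wild-type and orange for deleted hosts; lines are group means with SD bars beside them, and the open circle is library 7, which is not in the means. The upper 4 genes passed the test, with no overlap between genotypes, and the lower 4 did not pass.

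Genes next in order did not pass, although Lrg1, Lipa, Eif5a and Isg20 did so with a term for the barcode set (limma adjusted p = 0.00501, 0.0149, 0.0149 and 0.0268). Lrg1, a leucine-rich glycoprotein of neutrophil granules, stood at 2.22, 1.12, 1.44 and 1.89 UMIs per 10000 in libraries 1, 2, 5 and 6 of wild-type hosts and at 14.5, 7.44 and 2.98 in libraries 3, 4 and 8 of deleted hosts (log2 difference 1.81, limma adjusted p = 0.0709), but at 1.04 in library 7. Lipa, the lysosomal acid lipase, averaged 0.297 ± 0.139 (SD, n = 4) and 1.67 ± 0.784 (SD, n = 3, limma adjusted p = 0.072). On the lower side, Eif5a, a translation factor, stood at 6.77, 3.26, 5.33 and 4.48 in wild-type libraries and at 1.503, 1.46 and 1.56 in the deleted ones, with no UMI in library 7 (log2 difference -1.40, limma adjusted p = 0.072). Isg20, an interferon-induced exonuclease, stood at 13.7, 10.9, 7.86 and 12.1 and at 3.73, 3.24 and 6.22 (log2 difference -1.27, limma adjusted p = 0.142). Xbp1, a transcription factor of the unfolded protein response, averaged 2.61 ± 0.476 (SD, n = 4) and 1.04 ± 0.232 (SD, n = 3, limma adjusted p = 0.221).

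Tested genes that respond to interferon gamma all had positive differences, with none past the test. All 16 tested genes of a list of 21 had a positive log2 difference, with a median of 0.75 against 0.08 over all genes tested, of which 58.8% were positive. The other 5 were below the detection filter. Of the 16, 9 had an unadjusted p under 0.05, against 6.93% of all genes tested in that direction. The summed level of the list was 63.7, 52.7, 42.9 and 64.3 UMIs per 10000 in libraries 1, 2, 5 and 6 of wild-type hosts and 119, 114, 85.1 and 68.8 in libraries 3, 4, 7 and 8 of deleted hosts. Every deleted library lay above every wild-type one, with the smallest margin in library 8, and the median log2 difference was 0.91 among libraries 1 to 4 and 0.39 among libraries 5 to 8. In C1q-positive macrophages the summed level was 22.02 to 47.9.

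Several members are guanylate-binding proteins, which attack membranes of intracellular microbes. Gbp4 stood at 0.499, 0.615, 0.245 and 0.401 UMIs per 10000 in libraries 1, 2, 5 and 6 of wild-type hosts and at 3.32, 1.74 and 1.36 in libraries 3, 4 and 8 of deleted hosts, with 2.09 in library 7 (log2 difference 1.44, limma adjusted p = 0.072). Gbp2, a more abundant member, stood at 21.5, 16.0, 13.4 and 18.1 and at 44.1, 32.3 and 18.8, so that library 8 overlapped the wild-type range (limma adjusted p = 0.429). Gbp5 averaged 2.03 ± 0.599 (SD, n = 4) and 4.31 ± 1.24 (SD, n = 3) and did not overlap (limma adjusted p = 0.287). Among regulators of the response, Irf1, a transcription factor that interferon gamma induces, averaged 6.26 ± 1.44 and 10.7 ± 3.03, and Socs1, its feedback inhibitor, 1.15 ± 0.439 and 2.43 ± 0.134 (SD, n = 4 and 3; limma adjusted p = 0.474 and 0.296). Ifngr1, a receptor chain for interferon gamma, was close between genotypes at 0.876 and 0.968. Groups did not overlap for 5 of the 16 genes, against 5.3% of all genes tested in that direction.

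Promoters of these genes are shown because the group moved together. RefSeq windows (GRCm38.p6, 250 bases before to 50 after the start) matched 14 of the 16 genes by symbol and were searched on both strands. The core of the interferon-stimulated response element (ISRE), searched as TTTC followed by any 2 bases and a second TTTC, was found in 9 of the 14, against 6.52% of 1702 tested genes with a window and 3.44% of all 32851 windows. TTCNNNGAA, the palindromic core of the gamma-activated site, was found in 6, against 9.34% and 8.30%. In the type I interferon list described below, 10 of 20 genes with a window held the ISRE core and 4 the gamma-activated site. Both lists were made of known interferon targets, so this is a description of their members. Printed below, with matches to these motifs in capitals, are the 250 bases before the start of Gbp5 (chr3:142496684-142496933, plus strand), with 1 ISRE core and 2 gamma-activated sites, of Irf1 (chr11:53769764-53770013, plus strand), with 1 gamma-activated site, and of H2-T22 (chr17:36042743-36042992, minus strand), an MHC class I gene described next, with 1 ISRE core. The 3 were chosen after their matches were seen, and no capital stretch overlaps another.
Gbp5: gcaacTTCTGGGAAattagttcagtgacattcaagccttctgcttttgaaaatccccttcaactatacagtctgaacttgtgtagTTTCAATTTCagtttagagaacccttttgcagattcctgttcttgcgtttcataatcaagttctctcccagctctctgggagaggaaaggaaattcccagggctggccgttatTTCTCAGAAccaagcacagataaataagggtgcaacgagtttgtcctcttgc
Irf1: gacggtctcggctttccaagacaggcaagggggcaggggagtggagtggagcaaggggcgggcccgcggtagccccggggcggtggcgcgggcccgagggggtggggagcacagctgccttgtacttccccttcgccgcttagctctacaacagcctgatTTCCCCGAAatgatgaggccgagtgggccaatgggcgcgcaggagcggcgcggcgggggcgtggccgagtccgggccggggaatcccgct
H2-T22: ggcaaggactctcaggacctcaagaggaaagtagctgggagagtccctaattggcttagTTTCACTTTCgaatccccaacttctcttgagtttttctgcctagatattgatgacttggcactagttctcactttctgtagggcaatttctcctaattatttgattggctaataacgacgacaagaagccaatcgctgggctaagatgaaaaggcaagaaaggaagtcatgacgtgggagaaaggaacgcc

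In Gbp5 and H2-T22, the ISRE core began 165 and 191 bases before the start, and in Irf1 the gamma-activated site 90 bases before it. Neither motif was in the windows of the called genes H2-Q6, Gclm and Creg1. The window of Gclm held TGACNNNGC, the core of the antioxidant response element bound by Nrf2. Of the 1702 tested genes with a window 21.1% held this core, H2-T22, Cxcl10, Eif5a and Lrg1 among them, and 12.4% of all windows did. In Gclm it lies on the minus strand, 134 bases before the start, and is shown in capitals in the 250 bases of chr3:122245307-122245556 (plus strand).
Gclm: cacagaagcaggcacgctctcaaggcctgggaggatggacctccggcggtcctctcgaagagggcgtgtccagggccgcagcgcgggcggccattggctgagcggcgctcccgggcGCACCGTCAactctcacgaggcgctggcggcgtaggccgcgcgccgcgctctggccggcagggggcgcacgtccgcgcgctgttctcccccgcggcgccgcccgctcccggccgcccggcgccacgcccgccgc

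In all, 7 motifs were searched. The others were the CLEAR element, the E-box CACGTG that lies inside it, a short NF-kB site GGGNNNTCC and a longer NF-kB site with no free base, held by 0.326%, 7.15%, 17.8% and 0.110% of all windows. Of the called genes with a window, H2-Q6 held the short NF-kB site and Creg1 held none of the 7.

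Genes of antigen presentation were mostly positive, with 1 past the test. Of 15 tested genes of a list that holds class I, class II and peptide-loading genes, 13 had a positive log2 difference (median 0.63, with 0.70 among libraries 1 to 4 and 0.48 among libraries 5 to 8), and 1, H2-Q6, passed. H2-K1, a classical class I heavy chain (chromosome 17, 33996017 to 34000347), stood at 17.6, 13.9, 14.9 and 17.1 UMIs per 10000 in libraries 1, 2, 5 and 6 of wild-type hosts and at 44.0, 38.8 and 23.5 in libraries 3, 4 and 8 of deleted hosts, with 36.3 in library 7. The genotypes did not overlap in any of the 8 libraries, but H2-K1 did not pass (log2 difference 1.09, limma adjusted p = 0.239). B2m, the light chain of class I, averaged 39.3 ± 4.66 (SD, n = 4) and 63.1 ± 12.996 (SD, n = 3) without overlap (limma adjusted p = 0.534). H2-Q7, a close copy of H2-Q6, averaged 1.46 ± 0.652 and 4.76 ± 1.35, and H2-T22, a class I gene outside the list, 1.25 ± 0.637 and 4.16 ± 1.27 (SD, n = 4 and 3; limma adjusted p = 0.0816 and 0.0854). Tapbp, which loads peptides onto class I, averaged 4.83 ± 1.40 and 9.24 ± 2.86 (limma adjusted p = 0.349). Class II genes were mixed, with log2 differences of 0.82 for H2-Ab1, 0.33 for H2-Aa, -0.31 for H2-Eb1 and 0.01 for the invariant chain Cd74, none past the test. The summed level of the list was 109.8, 105, 102 and 101 in libraries 1, 2, 5 and 6 of wild-type hosts and 195, 184, 173 and 137 in libraries 3, 4, 7 and 8 of deleted hosts, while in macrophages it was 194 to 328.

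Type I interferon genes leaned the other way. Of 23 tested genes, 18 had a negative log2 difference, with a median of -0.35, and none passed. The summed level was 179, 150.2, 151 and 209.8 UMIs per 10000 in libraries 1, 2, 5 and 6 of wild-type hosts and 122, 109.5, 108 and 137 in libraries 3, 4, 7 and 8 of deleted hosts, so that every deleted library lay below every wild-type one. After Isg20, the largest differences were in Ifit3b (1.43 ± 0.460 and 0.451 ± 0.214, SD, n = 4 and 3, log2 difference -1.01, limma adjusted p = 0.239) and Ifit3 (1.83 ± 0.640 and 0.785 ± 0.607, limma adjusted p = 0.328), both members of the family of interferon-induced proteins that bind viral RNA. Slfn4, a schlafen of myeloid cells, averaged 19.2 ± 4.87 and 10.7 ± 3.18 without overlap (limma adjusted p = 0.383). In macrophages, 20 of 23 genes of this list were also negative, with a median of -0.39.

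**Figure D4:**
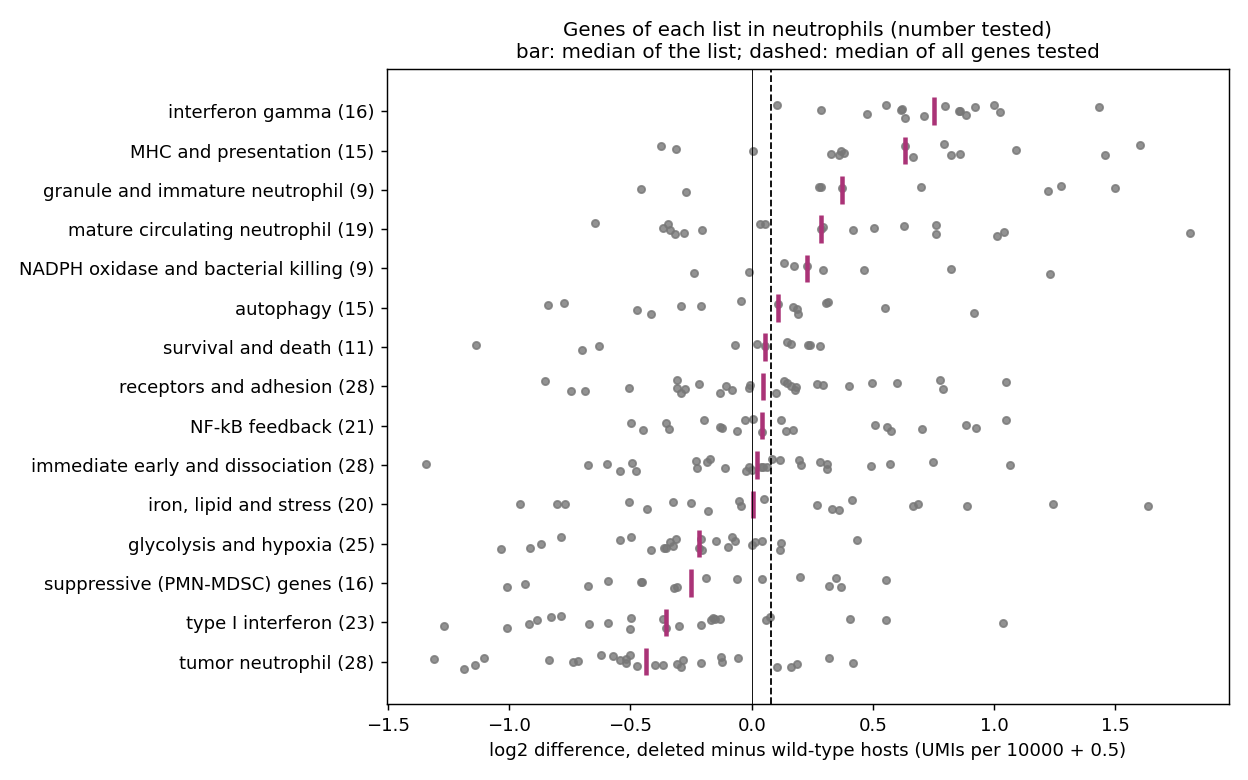
Log2 difference between host genotypes in neutrophils (x axis, deleted minus wild type) for each tested gene of 15 lists, with the number tested in parentheses; grey points are genes, purple bars list medians and the dashed line the median of all genes tested. All points of the interferon gamma list lie above 0, and 18 of 23 of the type I interferon list below it.

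Genes of the tumor-infiltrating state were mostly negative in libraries 1 to 4 and centered on 0 in libraries 5 to 8. Of 28 tested genes of a tumor neutrophil list 23 were negative (median -0.43, with -0.59 among libraries 1 to 4 and 0.00 among libraries 5 to 8), and none passed. This lean was not particular to neutrophils. In macrophages 21 of 29 tested genes of the list were negative (median -0.21), and in C1q-negative monocytes 26 of 29 (median -0.55). Spp1, which encodes osteopontin, stood at 9.05, 10.0, 8.54 and 17.8 UMIs per 10000 in libraries 1, 2, 5 and 6 of wild-type hosts and at 1.08, 8.39 and 6.30 in libraries 3, 4 and 8 of deleted hosts (limma adjusted p = 0.287). Ccl4 stood at 101, 87.5, 102 and 233 and at 27.6, 63.9 and 90.5, and overlapped (log2 difference -1.14, limma adjusted p = 0.307). Glycolysis and hypoxia genes were negative in 19 of 25 (median -0.22), with opposite medians in the barcode sets, at -0.59 and 0.12. They were also negative in 20 of 24 in macrophages (median -0.20) and in 23 of 24 in C1q-negative monocytes (median -0.39). Ldha, which makes lactate, averaged 12.4 ± 1.05 and 7.29 ± 3.78 (SD, n = 4 and 3, limma adjusted p = 0.387). Of 9 tested granule genes 7 were positive with none past the test (median 0.37, with 0.82 among libraries 1 to 4 and -0.08 among libraries 5 to 8). Mmp8, a collagenase of specific granules, stood at 1.39, 0.475, 1.19 and 1.22 and at 3.79, 4.59 and 1.78 (limma adjusted p = 0.156), and Hp, haptoglobin, averaged 1.06 ± 0.408 and 4.38 ± 2.89 (limma adjusted p = 0.114). The summed level of the 21 granule genes was 21.9, 24.4, 30.1 and 31.6 in libraries 1, 2, 5 and 6 of wild-type hosts. It was 46.0, 46.0, 35.1 and 36.9 in libraries 3, 4, 7 and 8 of deleted hosts, without overlap, and 19.1 to 68.1 in macrophages. Mature circulating neutrophil genes were positive in 12 of 19 (63.2%, against 58.8% of all genes tested), with medians of 0.38 among libraries 1 to 4 and -0.03 among libraries 5 to 8. NADPH oxidase and killing genes were positive in 7 of 9 (median 0.23). Cybb, the catalytic oxidase subunit, averaged 0.759 ± 0.264 and 2.70 ± 1.79 without overlap in the tested libraries, but had no UMI in library 7 (limma adjusted p = 0.183).

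Whether a host-genotype difference differed between neutrophils and other myeloid cells, in either direction, was tested within libraries against C1q-positive macrophages. Of 2051 genes tested in both, 11 (0.536%) differed in their genotype difference, 7 (0.341%) more positive and 4 (0.195%) more negative in neutrophils. H2-Q6 had a log2 difference of 1.60 in neutrophils and -0.13 in macrophages, a gap of 1.99 (SE 0.32, limma adjusted p = 0.00418), and passed in each of the 7 fits that left out 1 library. The macrophage value was fitted over all 8 libraries and the gap over the 7 with enough neutrophils, so the gap is not the difference of both values. For Gclm the gap was 1.89 (SE 0.33, limma adjusted p = 0.00606) and for Gbp4 1.89 (SE 0.38, limma adjusted p = 0.0223), with macrophage differences of -0.39 and -0.22. Both lost the call only without library 3. Ly6i (gap 1.89), H2-Q7 (1.68), H2-T22 (1.505) and Cxcl10 (1.42), a chemokine induced by interferon gamma, passed as well, with limma adjusted p of 0.0318, 0.0312, 0.0312 and 0.041. On leaving out 1 library they passed in 5, 3, 4 and 2 of 7 fits, with limma adjusted p reaching 0.370, 0.231, 0.228 and 0.301. Gdf15, a stress cytokine, was more negative in neutrophils by 2.52 and stood at 7.05, 1.81, 1.11 and 2.06 UMIs per 10000 in libraries 1, 2, 5 and 6 of wild-type hosts and at 0, 0.602 and 1.33 in libraries 3, 4 and 8 of deleted hosts. Gdf15 lost the call only without library 3. Sik1 and Thbs1 passed in 3 of 7 such fits each, and Tnfaip6 in 2 of the 4 that gave it a value. The number past the threshold ran from 1 (without library 3) to 21 (without library 1 or 8).

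**Figure D5:**
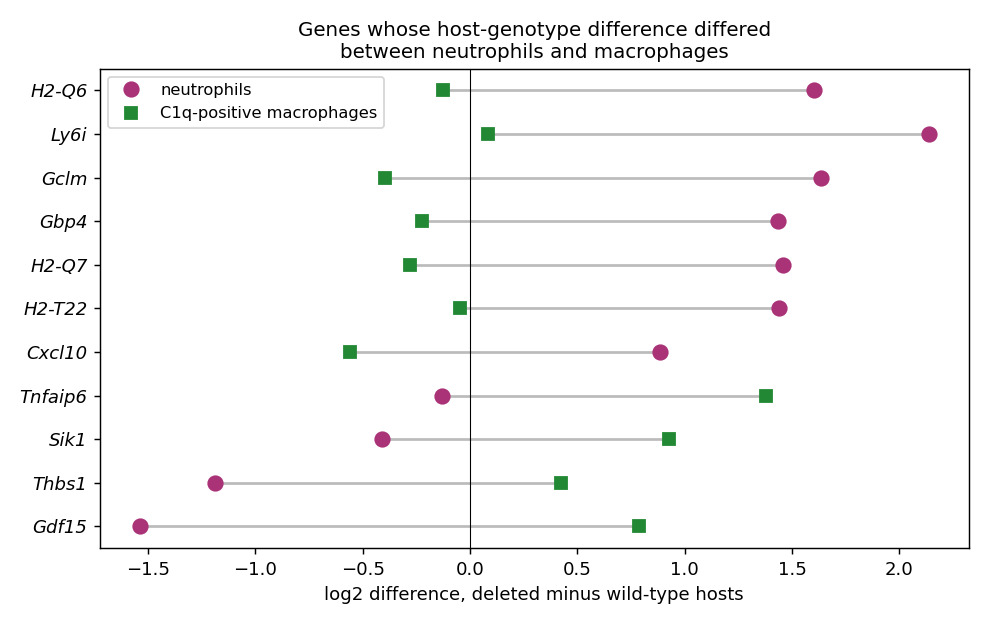
Log2 difference between host genotypes (x axis, deleted minus wild type) in neutrophils (purple circles) and C1q-positive macrophages (green squares) for the 11 genes whose differences differed between the 2 populations. H2-Q6 lies at 1.60 in neutrophils and -0.13 in macrophages.

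The interferon gamma list described the same contrast. In macrophages 6 of 21 tested genes were positive (median -0.07) and in C1q-negative monocytes 4 of 21 (median -0.21), against 16 of 16 in neutrophils. The gap between neutrophils and macrophages was positive for 15 of 16 genes, with a median of 0.90 against 0.12 over all genes tested, of which 60.8% were positive. For the presentation list the gap was positive for 11 of 15 (median 0.34), and for the type I interferon list for 15 of 22 (median 0.09). Other lists also had one-sided gaps. Against macrophages, the gap was negative for 25 of 27 immediate early and dissociation genes (median -0.62), of which 25 of 29 were positive in macrophages alone. Against monocytes, it was positive for 15 of 16 interferon gamma, 24 of 28 receptor and adhesion, 14 of 16 suppressive and 18 of 21 NF-kB feedback genes. Over all genes tested against monocytes, 64.8% were positive. Against monocytes, 10 of 2074 genes (0.482%) passed, 8 (0.386%) more positive and 2 (0.0964%) more negative in neutrophils, of which Cxcl10, Gbp4, H2-T22 and Tnfaip6 had also passed against macrophages. H2-Q6 did not pass against monocytes (gap 0.99, limma adjusted p = 0.145). Ly6i and Gclm were not among the genes past the threshold against monocytes either, and Creg1 was not among those past it against macrophages. Macrophages and monocytes on their own gave no gene past the threshold of 6164 and 6188 tested, and 443 (7.19%) and 696 (11.2%) at an unadjusted p under 0.05.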

How the data were processed

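Single-cell RNA was measured in 8 libraries, 4 per host genotype. Per the submitters' processing notes the tools included Cell Ranger 2.1, Seurat 3.0 and the mm10 build, with no role stated, and further steps were not given in the sources used here. As deposited by the authors, values are on a natural log scale, the log of 1 plus each gene's UMIs per 10000 of its cell, a unit read from the values, which sum back to 10000 in every cell. Whole UMIs were recovered for 100% of values within 0.01. The members and gene lists were chosen with earlier results of these data known.

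Levels are means over neutrophils of UMIs per 10000. For each gene, log2(level + 0.5) was compared between genotypes with limma 3.58.1 (R 4.3.3, mean-variance trend) and Benjamini-Hochberg adjustment over genes with a UMI in at least 5% of neutrophils in at least 4 libraries, and fold changes of low genes are understated on this scale. Folds given as such are ratios of mean levels. Differences between cell types were tested in the same way on within-library differences. Macrophages had UMIs of at least 2 C1q genes and none of Cd3d, Cd3e or Krt18. C1q-negative monocytes had Lyz2 and at least 1 of Ccr2, Ly6c2 and Vcan, none of the 6 excluded genes, and were not high in both S100a8 and S100a9. Single values were compared by exact permutation over libraries. Genes named in the text were the rule genes, all called genes, the next by p up to 10 per direction, and up to 4 per list by p and by level. Further named genes were the 20 most abundant (without ribosomal protein and mitochondrial genes), the 15 most restricted to neutrophils, the 10 most variable and the state genes. Ifngr1, H2-Aa, H2-Ab1, H2-Eb1 and Cd74 fall outside this rule and were chosen after their values were seen. Some results are not reported here. Doublets were not called, and cells of another type were removed only by the 6 genes of the rule. Coordinates are from GENCODE M21 (mm10), which held 98.8% of 19024 symbols. The scripts were tested on simulated data. Alternatives in scaling, filters, gate, depth and libraries are given at the end.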

Additional observations from a re-analysis of the deposited data

Results flagged for a closer look

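In groups of 4 libraries, the gap of an extreme library to its neighbor was compared with the range of the group over 36 groups, and chance marks about 1 in 20. Library 8 stood high among deleted hosts for the share of neutrophils of all cells (gap over range 0.9504) and of Ptprc-positive cells (0.935). Among wild-type hosts, library 6 stood high for Ccl4 (0.900), Cxcl2 (0.846) and Nfkbia (0.853) and library 5 for Cebpb (0.910), while library 1 stood low for G0s2 (0.922), a gene of the rule, and for H2-Q6 (0.843).

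The host-genotype difference differed between neutrophils and macrophages, by the test of the difference itself, for 11 genes. On the log2 scale the gaps were 1.99 for H2-Q6, 1.89 for each of Ly6i, Gclm and Gbp4, 1.68 for H2-Q7, 1.505 for H2-T22 and 1.42 for Cxcl10. They were -2.52 for Gdf15, -1.53 for Thbs1, -1.503 for Sik1 and -1.48 for Tnfaip6, an extracellular matrix protein of inflammation. For Thbs1 (thrombospondin 1, -1.19 in neutrophils and 0.42 in macrophages) and Gdf15 both cells contributed, with opposite directions. For Tnfaip6 the difference lay in macrophages (1.38) and was near 0 in neutrophils (-0.13). Sik1, with a gap of -1.503, differed by only -0.41 in neutrophils and did not pass there (limma adjusted p = 0.652).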

How the results depend on the processing

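Neutrophil counts limited every comparison: 14 to 783 cells per library, about 1000 UMIs each, and 3 deleted libraries in the test across genes. The 4 genes higher in deleted hosts became 0 with a pseudocount of 0.1, no detection filter, summed UMIs, the rule genes left out of the total, median-ratio scaling, thinning to 500 UMIs, at most 10% mitochondrial UMIs, or library 7 added (chosen after seeing the data), 1 with S100a8 and S100a9 at 4 or more, 9 with means of the deposited log values, 11 without the exclusion by 6 genes, and 20 with a term for the barcode set. Genes lower in deleted hosts numbered 0, and 4 with the barcode set term. Leaving out 1 library gave 0 to 30 higher and 0 to 9 lower genes, the highest without library 8. The 11 genes that differed from macrophages became 1 to 21 on leaving out 1 library and 18 with the barcode set term (added after seeing the data). Median-ratio scaling moved the unadjusted split from 149 higher and 66 lower to 114 and 105, and the median of all genes from 0.08 to -0.01. The share of all cells ranged from -1.95 to 2.86 percentage points, that of Ptprc-positive cells from -14.3 to -4.69, and the Atg7 difference from -0.145 to 0.0744 UMIs per 10000 on leaving out 1 library, and the first and last changed sign, the share of all cells without library 8 and Atg7 without library 7. Tnfaip6, -0.13 in neutrophils, became 0.0545 with means of log values, ran from -0.678 to 0.197 on leaving out 1 library (positive without library 4, 5 or 8, at 0.197, 0.00717 and 0.0873), and 0.0573 with library 7. For the 4 called genes the log2 difference stayed positive in all of the up to 20 alternatives that gave a value, at 1.31 to 2.53 for Ly6i, 0.74 to 2.08 for H2-Q6, 0.87 to 2.099 for Gclm and 1.20 to 2.01 for Creg1, while adjusted p reached 0.744. List medians, examined under the alternatives only after seeing the data, stayed on their side of 0 in 20 of 20 alternatives for interferon gamma (0.51 to 0.94), presentation (0.38 to 0.79), type I interferon (-0.59 to -0.09) and tumor neutrophil genes (-0.71 to -0.11). Glycolysis reached 0.00240. The cause of these changes was not tested. No paired analysis was possible because no label ties a library of 1 genotype to a library of the other.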

Other observations

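Most other gene lists had medians near that of all genes tested, 0.08, in neutrophils. The median log2 difference was 0.05 for 28 receptor and adhesion genes, 0.04 for 21 NF-kB feedback genes, 0.02 for 28 immediate early and dissociation genes, 0.05 for 11 survival and death genes and 0.00 for 20 iron, lipid and stress genes, of which Gclm was the 1 called. Suppressive genes stood apart from these, with 10 of 16 negative, a median of -0.25 and none past the test. Their median turned to 0.07 after thinning to 500 UMIs and to 0.04 with means of the deposited log values. In macrophages 10 of 18 were negative (median -0.07), and in C1q-negative monocytes 16 of 19 (median -0.37). Of 15 autophagy genes 8 were positive (median 0.11). Sqstm1, the autophagy receptor p62 that autophagy degrades, stood at 8.67 ± 4.68 UMIs per 10000 in wild-type and 9.32 ± 3.17 in deleted hosts (SD, n = 4 and 3, limma adjusted p = 0.902).

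Some genes separated the barcode sets and not the host genotypes. Atp6v0c, a subunit of the lysosomal proton pump, stood at 0, 0.421, 0 and 0.103 UMIs per 10000 in libraries 1 to 4 and at 11.3, 45.7, 11.6 and 18.6 in libraries 5 to 8. Eno1, an enolase, stood at 1.62, 1.75, 0.961 and 0.456 in libraries 1 to 4 and at 8.23, 13.4, 11.2 and 9.29 in libraries 5 to 8. Gm42418, which overlaps ribosomal RNA, ran the other way, at 714, 972, 597 and 814 in libraries 1 to 4 and 135, 114, 305 and 177 in libraries 5 to 8. Slpi, a protease inhibitor secreted by neutrophils, ranged from 17.2 in library 2 to 94.3 in library 8. Ccl6 was low in 2 deleted libraries only, at 3.66 and 8.81 in libraries 3 and 4, against 22.6 to 40.1 in the others.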
